A study of Mus musculus with 6 samples.

Results

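The machinery that stores transmitter in synaptic vesicles, docks them at the presynaptic membrane and fuses them was examined in ribosome-bound RNA from mouse cortex. It was represented by 47 genes, chosen by symbol, which 123 probe sets of the array name as their only gene, out of 34945 probe sets naming 1 gene. Of the 47, 46 genes reached a mean intensity of 50 in at least 1 group and were tested among 11821 genes. Sv2c, a vesicle glycoprotein gene, did not, with values of 7.61 to 10.9 in the 6 arrays.

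The RNA came from translating ribosome affinity purification (TRAP), in which ribosomes carrying a tag are pulled out of the cells where a driver gene, borne on a bacterial artificial chromosome (BAC), is active. The S100a10 group held 3 samples from line ES691, and the Glt25d2 group 3 samples from line DU9, whose driver gene is now named Colgalt2. Both lines came from FVB mice crossed to C57BL/6 for a few generations, and all samples were untreated cortex. Each driver is represented by a single line, the S100a10 BAC is stated to mark some cells other than neurons, and age is not given in the labels. The study set the lines side by side as classes of cortical pyramidal cells, and its authors advised keeping to a published list of probe sets because of those other cells. That list was not used here.

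Release runs in a fixed order. Synapsins hold vesicles in reserve, Rab3 proteins and active zone scaffolds bring them to the membrane, and the SNARE proteins of vesicle (Vamp) and plasma membrane (syntaxin 1, Snap25) zip together to fuse them. Synaptotagmins sense the calcium that triggers fusion, complexins clamp and assist the SNAREs, Nsf with its adaptors takes the SNAREs apart again, and dynamin and its partners retrieve the membrane. The proteins reach the membrane in different ways. Vesicle proteins with several membrane spans and synaptotagmins are inserted at the endoplasmic reticulum while they are translated, tail-anchored SNAREs are inserted after translation, and the scaffolds, Rab proteins, synapsins and complexins are made on free ribosomes.

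Values are intensities after GCRMA, a background correction and scaling of Affymetrix arrays, and a difference is the mean log2 intensity in S100a10 arrays less that in Glt25d2 arrays. Calls are limma's at an adjusted p under 0.05 (Benjamini-Hochberg over all 11821 genes). The median probe set had an intensity of 20.4 to 21.3 in the Glt25d2 arrays and 35.5 to 35.8 in the S100a10 arrays, and the median gene differed by 0.56. Quantile normalization of the 6 arrays moved that median to -0.02. Centring each array on its median lowered every difference by 0.77, which put the median gene at -0.21. In Glt25d2 replicate 3, 8.4% of all genes were more than 4-fold lower than in Glt25d2 replicates 1 and 2 on average. S100a10 was 4.75-fold higher in its own line, and Colgalt2 was at least 21.1-fold higher in its own, against a level of 50. Fibroblast and mural cell markers rose in all 9 of 9 tested genes, with a summed intensity of 293 to 462 in Glt25d2 and 16918 to 20528 in S100a10 arrays. Of the 9, 7 lay under 50 in every Glt25d2 array. These 7 were tested only through the S100a10 group, so the filter fixed their direction. Col1a1 did not reach a mean of 50 in either group. Of 7 pan-neuronal markers 2 rose and 2 fell, with sums of 47439 to 54947 and 43450 to 46297, and of 4 excitatory markers 2 rose, with sums of 5565 to 7055 and 9311 to 9625. Of 8 interneuron markers 3 rose and 1 fell (12339 to 18353 and 15999 to 19908), and of 6 astrocyte markers 2 rose and 1 fell (869 to 6618 and 12984 to 16908, with Gfap under 50 in every S100a10 array). Of 4 oligodendrocyte markers 1 rose and 1 fell, with sums of 6277 to 9482 in Glt25d2 and 3091 to 4661 in S100a10 arrays. Of 4 tested microglia markers 1 rose (292 to 470 and 504 to 798). Olig2, Cx3cr1 and Tmem119 lay under 50 in every Glt25d2 array. Of 2 tested endothelial markers 1 fell (160 to 562 and 118 to 126), while Pecam1, Cdh5, Flt1 and Tek did not reach 50 in either group. The part of non-neuronal cells in the results below was not tested. In bulk RNA of this kind fewer cells of a type and less RNA per cell cannot be told apart.

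Of the 46 tested genes, 13 were higher in S100a10 arrays (28.3%), against 44.7% of all genes, and 1 was lower (2.17%), against 4.59% of all genes. The median difference of the 46 was 0.51, beside 0.56 for all genes. The groups did not overlap for 23 genes toward S100a10 (50.0%), against 55.9% of all genes, and for 1 toward Glt25d2, against 7.9%. The 13 were Syn1, Vamp1, Vamp2, Vamp3, Vamp4, Stx1a, Stx6, Stx16, Napa, Rims1, Rims2, Rph3a and Dnm1, and the 1 that fell was Syn3. After quantile normalization 5 were higher (background 18.7%) and 2 lower (19.0%), and after centring 2 were higher (16.6%) and 13 lower (31.8%). At the brightest probe set of each gene, only 3 genes, Syn1, Rph3a and Syn3, passed in the same direction with the deposited values and after both rescalings. Without Glt25d2 replicate 3, 23 genes were higher (background 55.8%) and 2 lower (6.34%), and with quantile normalization as well 8 were higher (24.1%) and 3 lower (23.7%).

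**Figure D1:**
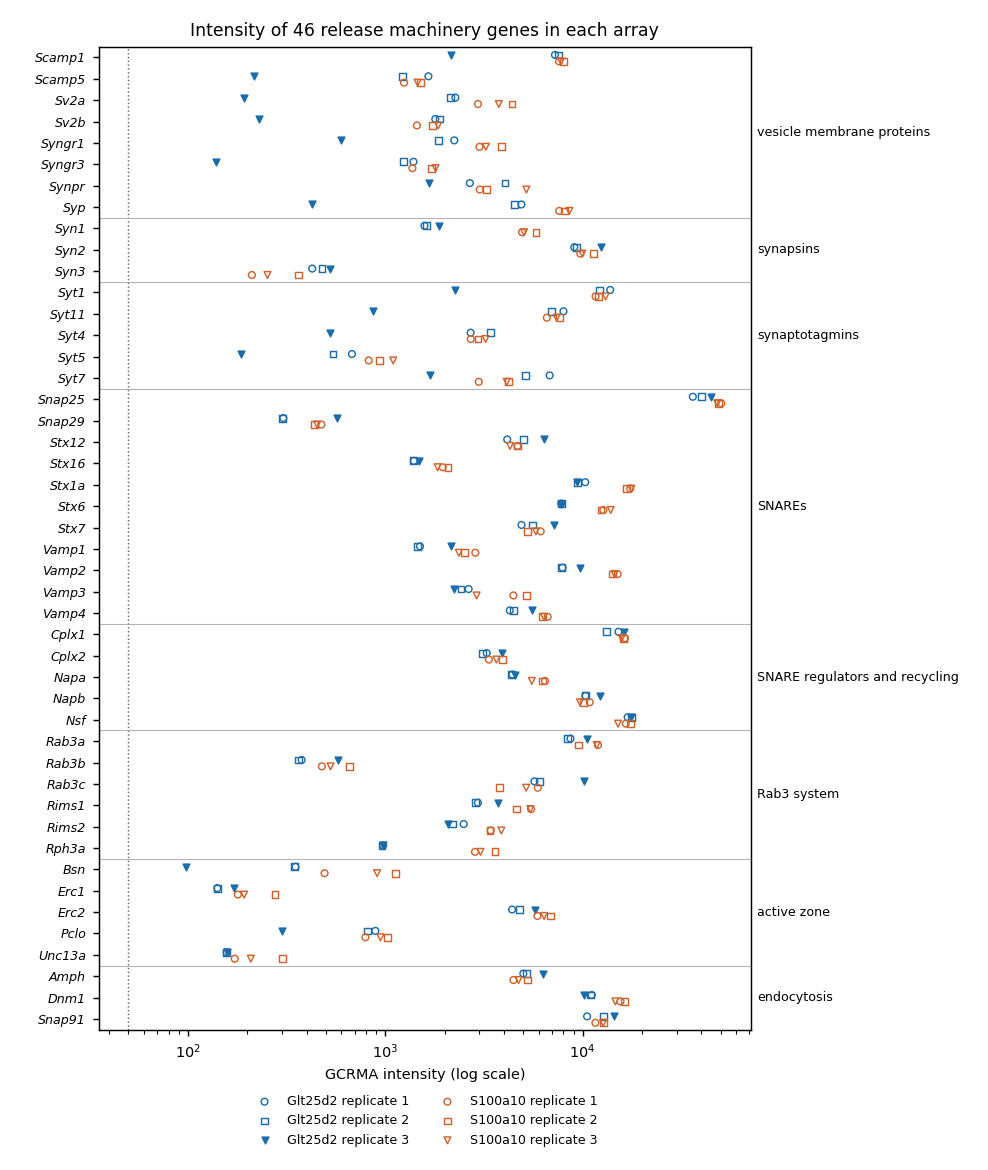
Intensity (GCRMA, log axis) of 46 release machinery genes in each of 6 arrays, Glt25d2 in blue and S100a10 in orange, one marker shape per replicate, with Glt25d2 replicate 3 filled and the level of 50 dotted. Glt25d2 replicate 3 is the lowest point for all 8 vesicle membrane proteins and 5 synaptotagmins, and near its own group for the SNAREs.

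Syn1 and Rph3a had the largest called differences. Syn1 encodes synapsin I, a phosphoprotein that coats vesicles and ties them to the reserve pool. Its intensity was 1581, 1623 and 1874 in Glt25d2 and 4936, 5804 and 5052 in S100a10 arrays. Every S100a10 array lay far above every Glt25d2 array, and the difference was 1.64 (SE 0.12, limma adjusted p = 1.87e-04), or 3.11-fold. It passed in all 17 alternative fits, with differences of 0.87 to 1.71. Syn2, which encodes the second synapsin, overlapped between the groups, with 9081, 9341 and 12384 in Glt25d2 and 9740, 11382 and 9977 in S100a10 arrays, a difference of 0.02 (SE 0.16). Syn3, whose product is most abundant early in neuronal development, went the other way. It had 427, 478 and 528 in Glt25d2 and 211, 364 and 253 in S100a10 arrays, a difference of -0.82 (SE 0.22, limma adjusted p = 0.0262). Syn3 did not pass without Glt25d2 replicate 2, S100a10 replicate 1 or S100a10 replicate 3, or by its lowest probe set. For Syn2, 2 of 5 tested probe sets were called higher, at 0.61 (SE 0.10) and 0.63 (SE 0.19), and the other 3 lay between 0.01 and 0.10. By their brightest probe sets the 3 synapsin genes held 1 rise, 1 fall and 1 gene that did not pass, and by their lowest 2 rises and 0 falls.

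Rph3a encodes rabphilin, an effector that binds Rab3 and calcium. It had 977, 964 and 974 in Glt25d2 and 2850, 3599 and 3039 in S100a10 arrays, so the groups were widely separated. The difference was 1.70 (SE 0.12, limma adjusted p = 1.45e-04), or 3.24-fold. A dimmer second probe set of Rph3a overlapped between the groups and differed by 0.27 (SE 0.55). The probe sets of this gene therefore do not report the same change.

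A start region of each gene is shown because these were the rises that held under all 3 scalings at the brightest probe sets. Each window runs from 250 bases before to 50 after a RefSeq gene start (GRCm38.p6), printed 5′ to 3′ on the gene's strand. Capitals mark every match, on either strand, to a cyclic AMP response element (TGACGTCA), the left part of the repressor element RE1 (TTCAGCAC), its right part (GGACAG), a GC box (GGGCGG), an E box (CACGTG) or a TATA box (TATAAA). No 2 matches overlap in them.
Syn1 (chrX:20920869-20921168, minus strand): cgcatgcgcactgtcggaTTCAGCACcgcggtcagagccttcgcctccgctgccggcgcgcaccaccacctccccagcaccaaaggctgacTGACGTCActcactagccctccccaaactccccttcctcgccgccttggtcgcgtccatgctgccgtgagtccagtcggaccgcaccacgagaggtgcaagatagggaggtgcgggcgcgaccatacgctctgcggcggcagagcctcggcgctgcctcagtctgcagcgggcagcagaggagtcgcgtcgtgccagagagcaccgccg
Rph3a (chr5:121009489-121009788, minus strand, the second of 3 listed starts): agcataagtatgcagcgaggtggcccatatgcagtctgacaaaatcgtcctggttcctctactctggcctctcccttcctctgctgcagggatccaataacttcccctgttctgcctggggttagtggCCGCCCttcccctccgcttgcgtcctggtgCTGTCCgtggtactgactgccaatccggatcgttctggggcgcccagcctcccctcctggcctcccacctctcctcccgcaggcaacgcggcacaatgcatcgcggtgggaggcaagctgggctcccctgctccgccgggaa
The Syn1 window holds 1 cyclic AMP response element, present in 1.79% of 32851 RefSeq windows, and 1 RE1 left part, present in 1.17%. The Rph3a window shown holds an RE1 right part on the opposite strand, a motif in 22.2% of all windows, and 1 GC box on the opposite strand. Of the Rph3a windows not shown, the first listed holds only an RE1 right part on the opposite strand, and the third holds no match. Of the 47 genes, 38 have 51 windows in the table. A GC box is in 32 of these (62.7%), against 35.7% of all windows, and an RE1 left part is in 2, those of Syn1 and Unc13a. These are matches of letters only, and binding was not measured here.

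Of the 11 SNARE genes 7 were called higher (63.6%, against 44.7% of all genes) and 0 lower with the deposited values. After quantile normalization 3 were higher (background 18.7%) and 0 lower, and after centring 0 were higher and 3 lower (31.8%), namely Snap25, Stx7 and Stx12. Vamp2, the main vesicle SNARE of the forebrain, had 7916, 7844 and 9728 in Glt25d2 and 15067, 14195 and 14522 in S100a10 arrays. The groups did not overlap, and the difference was 0.79 (SE 0.12, limma adjusted p = 0.00307). Stx1a, its plasma membrane partner, had 10319, 9387 and 9354 against 17422, 16753 and 17652, again without overlap. Stx1a differed by 0.84 (SE 0.09, limma adjusted p = 8.8e-04). Snap25, the third SNARE of the fusion complex, did not overlap either, with 36210, 40001 and 44643 in Glt25d2 and 50431, 48835 and 48177 in S100a10 arrays. Its difference of 0.29 (SE 0.11) did not pass (limma adjusted p = 0.0735), but passed without Glt25d2 replicate 3, at 0.37 (limma adjusted p = 0.0281). Beside the median gene at 0.56, Vamp2 and Stx1a stood 0.23 and 0.28 higher and Snap25 stood 0.27 lower. After centring, Vamp2 and Stx1a at their brightest probe sets kept a positive sign, at 0.02 and 0.07, and did not pass. The dimmer probe set of Stx1a was called higher after centring, at 1.29. Snap25 was called lower after centring, at -0.48. A second, dimmer probe set of Snap25 also separated the groups, but the other way, with 10264, 10264 and 10481 in Glt25d2 and 7085, 8415 and 9771 in S100a10 arrays. It differed by -0.31 (SE 0.14) and did not pass, so the direction for Snap25 depends on the probe set.

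Vamp1, the paralog of Vamp2 best known from brainstem and spinal cord, rose by 0.62 (SE 0.19), and Vamp3 (cellubrevin), which serves fusion in many cell types, by 0.75 (SE 0.23). Vamp1 had 1500, 1457 and 2160 in Glt25d2 and 2863, 2519 and 2362 in S100a10 arrays, and Vamp3 had 2647, 2422 and 2233 against 4464, 5204 and 2906. S100a10 replicate 3 of Vamp3 lay close to the Glt25d2 arrays. Vamp3 did not pass without Glt25d2 replicate 1 or 2, or S100a10 replicate 1 or 2, and Vamp1 did not without Glt25d2 replicate 1 or 2 or any S100a10 array. At their brightest probe sets both took a negative sign after centring, at -0.15 and -0.02, where the median gene was at -0.21. The SNAREs of endosomes and the trans-Golgi network held both called and uncalled genes. Vamp4 rose by 0.44 (SE 0.13), Stx6 by 0.74 (SE 0.09) and Stx16 by 0.46 (SE 0.09). After centring they were at -0.32, -0.03 and -0.31, beside -0.21 for the median gene. Vamp4 lost its call when any array other than Glt25d2 replicate 3 was left out. Stx6 had an identical intensity of 7804 in all 3 Glt25d2 arrays, so that group shows no spread, and 12745, 12399 and 13891 in S100a10 arrays. Of its 5 tested probe sets 2 were called higher, and the mean of them did not pass. Stx7 and Stx12, syntaxins of late and recycling endosomes, overlapped between the groups and differed by -0.02 (SE 0.17) and -0.16 (SE 0.17), and after centring they were called lower, at -0.79 and -0.93. Snap29, a SNARE of autophagy and intracellular fusion, differed by 0.28 (SE 0.27).

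The genes that clamp and recycle SNAREs differed by -0.10 to 0.45 at their brightest probe sets. Cplx1 encodes complexin 1 and had 15193, 13219 and 16273 in Glt25d2 and 16401, 16194 and 15785 in S100a10 arrays, a difference of 0.12 (SE 0.11). Cplx2 differed by 0.09 (SE 0.13), Nsf, the ATPase that unwinds SNARE bundles, by -0.09 (SE 0.10), and Napb, the brain form of its adaptor, by -0.10 (SE 0.11). All 4 genes overlapped between the groups at these probe sets. The other tested probe set of Nsf had 7471, 7116 and 8112 in Glt25d2 and 6121, 3826 and 5405 in S100a10 arrays, a difference of -0.59 (SE 0.19). Nsf was called lower in the fits that averaged its probe sets (-0.34, limma adjusted p = 0.0476) or took the lowest one (limma adjusted p = 0.0458). Napa, the general form of the adaptor, rose by 0.45 (SE 0.10, limma adjusted p = 0.013), from 4412, 4359 and 4549 to 6453, 6270 and 5531, and its call was lost without Glt25d2 replicate 2 and after quantile normalization. After centring all 5 genes had a negative sign, and Cplx1, Cplx2, Nsf and Napb were called lower.

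In the Rab3 system, the scaffolds rose and the GTPases did not pass. Rims1 and Rims2 encode the scaffolds that link Rab3 on vesicles to calcium channels. Rims1 had 2949, 2868 and 3712 in Glt25d2 and 5484, 4625 and 5440 in S100a10 arrays, a difference of 0.71 (SE 0.14, limma adjusted p = 0.00928). Rims2 differed by 0.67 (SE 0.12, limma adjusted p = 0.00548), and for both genes every S100a10 array was higher than every Glt25d2 array. Their signs were negative after centring, at -0.06 and -0.10, though above the median gene at -0.21. Rab3a, the main Rab3 of the brain, differed by 0.27 (SE 0.15) and Rab3b by 0.36 (SE 0.23). The other tested probe set of Rab3a went the other way without overlap. It had 9747, 8598 and 9183 in Glt25d2 and 7834, 7772 and 7745 in S100a10 arrays. Its difference of -0.24 (SE 0.09) did not pass, but was called lower after quantile normalization, at -0.45 (limma adjusted p = 0.0247). The direction for Rab3a therefore depends on the probe set. Rab3c stood in the opposite direction, with 5701, 6061 and 10133 in Glt25d2 and 5933, 3795 and 5181 in S100a10 arrays. The groups overlapped and the difference of -0.53 (SE 0.28) did not pass (limma adjusted p = 0.173). All 4 tested probe sets of Rab3c were negative, from -1.02 to -0.53, and 1 of them was called lower.

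None of the 5 active zone genes passed with the deposited values at its brightest probe set. All 5 had a positive sign, as did 9487 of all 11821 genes. Bsn (bassoon), a giant scaffold of the active zone, had 351, 348 and 97.8 in Glt25d2 and 493, 1131 and 910 in S100a10 arrays. Each S100a10 array was higher than each Glt25d2 array, and the difference of 1.80 (SE 0.60) narrowly missed the threshold (limma adjusted p = 0.0512). It passed in 5 of the 17 alternative fits, among them the one without Glt25d2 replicate 3, at 1.19. Its relative Pclo (piccolo) had 891, 815 and 300 against 794, 1029 and 946, with overlapping groups and a difference of 0.61 (SE 0.44). Unc13a, which encodes the priming factor Munc13-1, Erc1 and Erc2 differed by 0.49 (SE 0.21), 0.49 (SE 0.20) and 0.37 (SE 0.14). Pclo, Unc13a, Erc1 and Erc2 were negative after centring, where the median gene was at -0.21. Unc13a and Erc1 were negative also after quantile normalization. Without 1 array some passed, Erc1 (0.59) and Erc2 (0.48) without Glt25d2 replicate 3 and Unc13a (0.67) without S100a10 replicate 1. The dimmer tested probe set of Erc1 was called higher with the deposited values, at 0.66 (SE 0.19, limma adjusted p = 0.0312). Erc1 also passed with its probe sets averaged, at 0.58 (limma adjusted p = 0.00682), and by its lowest one. Unc13a had the same intensity of 157 in every Glt25d2 array.

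Among the 3 genes of vesicle retrieval, Dnm1, the dynamin that pinches vesicles off, rose by 0.53 (SE 0.10, limma adjusted p = 0.00604). It had 11128, 11000 and 10212 in Glt25d2 and 15562, 16337 and 14666 in S100a10 arrays, with no overlap. It lost its call after quantile normalization, at 0.34, and turned to -0.24 after centring. Amph (amphiphysin) and Snap91 (the clathrin adaptor AP180) overlapped between the groups and differed by -0.19 (SE 0.13) and -0.02 (SE 0.14). Amph was called lower after quantile normalization, at -0.45 (limma adjusted p = 0.0471), and after centring, at -0.96, and Snap91 after centring, at -0.78. Dnm1 stood close to the median gene, 0.03 below it.

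**Figure D2:**
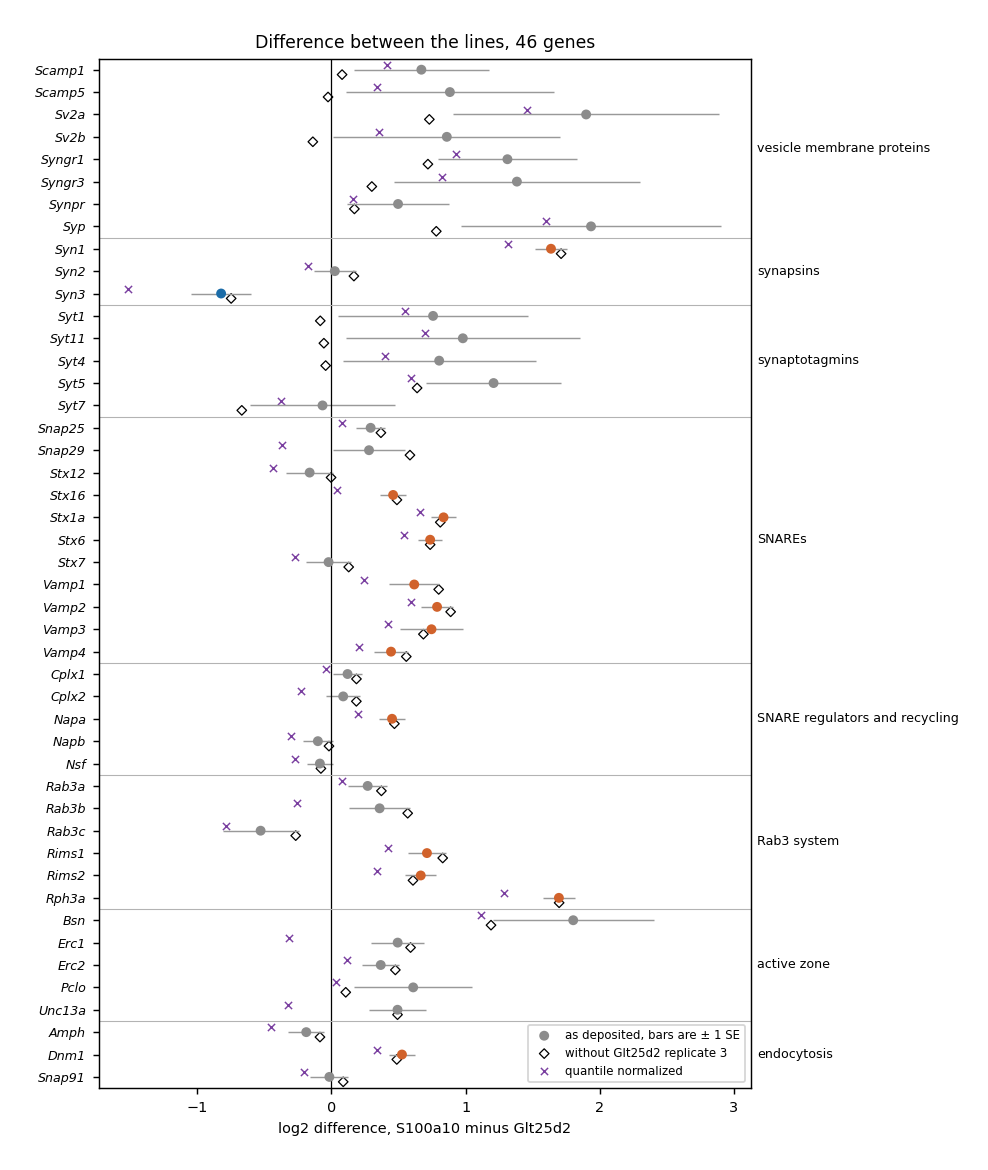
log2 difference of S100a10 minus Glt25d2 for 46 genes by role: filled circles as deposited with ± 1 SE (orange called higher, blue called lower, grey not called), diamonds without Glt25d2 replicate 3, crosses after quantile normalization. Bars are longest for vesicle membrane proteins and synaptotagmins, whose diamonds lie left of the circles, and quantile normalization turns the sign of Syn2, Snap29, Cplx1, Cplx2, Rab3b, Erc1 and Unc13a.

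The vesicle membrane proteins and synaptotagmins did not pass in any of 13 tested genes. Their Glt25d2 arrays disagreed with each other. Syp (synaptophysin), an abundant membrane protein of the vesicle, had 4899, 4522 and 427 in Glt25d2 and 7614, 8111 and 8575 in S100a10 arrays. Glt25d2 replicate 3 was at 9.07% of the mean of Glt25d2 replicates 1 and 2. The difference of 1.94 (SE 0.97, limma adjusted p = 0.15) became 0.78 without that array (limma adjusted p = 0.00132), and 0.51 with quantile normalization as well (limma adjusted p = 0.0149). Sv2a, the vesicle glycoprotein that binds the drug levetiracetam, had 2268, 2138 and 194 against 2952, 4384 and 3764. It differed by 1.90 (SE 0.99), or by 0.73 without Glt25d2 replicate 3, when it passed (limma adjusted p = 0.0107). Its relative Sv2b had 1794, 1884 and 230 against 1447, 1733 and 1856, so that Glt25d2 replicates 1 and 2 lay within or above the S100a10 range. Sv2b differed by 0.86 (SE 0.85), by -0.14 without Glt25d2 replicate 3, and by -0.55 with quantile normalization as well, when it was called lower (limma adjusted p = 0.0242).

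Syngr1 (synaptogyrin 1) had 2239, 1859 and 595 in Glt25d2 and 3005, 3894 and 3238 in S100a10 arrays, a difference of 1.31 (SE 0.52). It passed without Glt25d2 replicate 3, at 0.72 (limma adjusted p = 0.00666). Syngr3, a neuronal relative, went from 1.38 (SE 0.92) to 0.30 without that array. Its dimmer probe set went from 2.19 (SE 0.81) to 1.22 and was then called higher (limma adjusted p = 2.31e-04). Synpr (synaptoporin), the synaptophysin relative, had 2686, 4044 and 1675 against 3013, 3266 and 5191, with overlapping groups and a difference of 0.50 (SE 0.38). Scamp1 and Scamp5, carrier proteins of vesicle membranes, differed by 0.67 (SE 0.50) and 0.88 (SE 0.78), and by 0.08 and -0.03 without Glt25d2 replicate 3. The dimmer probe set of Scamp1 was called lower without that array, at -0.48 (limma adjusted p = 0.0287).

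Syt1, the calcium sensor of fast release, had 13806, 12212 and 2258 in Glt25d2 and 11642, 12063 and 13096 in S100a10 arrays. Without Glt25d2 replicate 3 the groups overlapped and the difference moved from 0.76 (SE 0.71) to -0.08. Syt4 and Syt11, synaptotagmins that do not bind calcium in the usual way, moved from 0.80 (SE 0.72) and 0.98 (SE 0.87) to -0.04 and -0.06. Syt5 moved from 1.21 (SE 0.50) to 0.64 and passed (limma adjusted p = 0.0141). Syt7, a slow, high-affinity calcium sensor, had 6810, 5153 and 1694 against 2979, 4201 and 4132, and its difference moved from -0.07 (SE 0.54) to -0.67, when it was called lower (limma adjusted p = 0.0239). The other 2 tested probe sets of Syt7 had positive differences with all arrays, 0.76 (SE 0.34) and 1.76 (SE 0.58), so its direction depends on the probe set. Without Glt25d2 replicate 3 one of them was called higher, at 1.10 (limma adjusted p = 0.00481).

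In Glt25d2 replicate 3 the genes are described by 3 classes of membrane insertion, which were set with values of these arrays known, and no test of the classes was made. The 13 tested genes inserted during translation were at 8.79% to 49.8% of the mean of replicates 1 and 2, with a median of 17.1%, and all 13 had their lowest value of the 6 arrays there. The 9 tail-anchored SNAREs were at 88.1% to 146% (median 124%), and the 24 soluble or peripheral genes had a median of 118%. Bsn at 27.95% and Pclo at 35.1% were the only soluble genes below the lowest of the others, 88.5%. In log2, the medians of the classes were -2.54, 0.30 and 0.24, beside 0.07 over all genes. More than 4-fold lower than in the other Glt25d2 arrays were 8 of the 13 inserted genes (61.5%), none of the 9 tail-anchored or 24 soluble genes, and 8.4% of all genes. More than 2-fold lower were 12 of the 13 inserted genes, 0 of the 9 tail-anchored genes, 2 of the 24 soluble genes and 14.5% of all genes. Counted by single probe sets, 25 of 27 tested probe sets of the inserted genes were under 50%. Of the others 3 of 72 were, those of Bsn and Pclo and the second probe set of Rph3a. These counts include the probe sets used above and read the same genes in the same array, so they are no separate evidence. The 2 exceptions among inserted genes were the dimmer probe sets of Syngr1 (77.8%) and Scamp5 (66.4%). The inserted genes had class medians of -0.25, 0.08 and 0.14 in S100a10 replicates 1, 2 and 3. S100a10 replicate 1 was lower than the mean of its other arrays for all 13 of them, by at most 0.48.

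**Figure D3:**
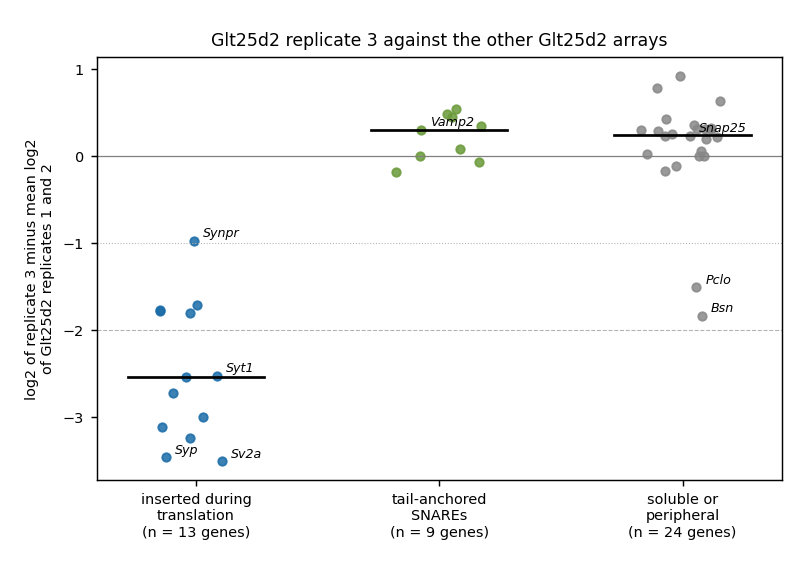
log2 intensity of Glt25d2 replicate 3 minus the mean log2 of Glt25d2 replicates 1 and 2, one point per gene, in 3 classes by the way the protein reaches membranes, with class medians as black bars and 2-fold and 4-fold reductions as dotted and dashed lines. All 13 inserted genes lie below every tail-anchored gene, and Bsn and Pclo stand apart among the 24 soluble genes.

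The inserted class had 0 calls in the limma fit of all arrays (1 at an unadjusted p under 0.05), and 0 of its 13 genes were called after quantile normalization or centring. Without Glt25d2 replicate 3 it had 4 higher (Syp, Sv2a, Syt5 and Syngr1; 30.8%, background 55.8%) and 1 lower (Syt7; 7.69%, background 6.34%), and its median difference moved from 0.88 to 0.08. With quantile normalization as well it had 1 higher (Syp) and 2 lower (Sv2b and Syt7), and a median of -0.16. The inserted gene Syngr1 was also called higher with its probe sets averaged and by its lowest one. That dimmer probe set, at 25.2, 26.7 and 20.2 in Glt25d2 and 105.5, 91.7 and 99.8 in S100a10 arrays, was called higher with the deposited values, at 2.05 (limma adjusted p = 1.57e-04), and after centring and quantile normalization. Its Glt25d2 values all lie below the level of 50. It was tested only through the S100a10 group, so the filter fixed its direction. The calls of Syngr1 by averaged or lowest probe sets use these values and are no separate evidence. The tail-anchored class had 7 of 9 higher (77.8%) and 0 lower both with that array (background 44.7%) and without it (55.8%), with median differences of 0.62 and 0.69. After quantile normalization 3 were higher (18.7%) and 0 lower, and after centring 0 were higher and 2 lower (31.8%). The soluble class had 6 of 24 higher (25.0%, background 44.7%) and 1 lower (4.17%, background 4.59%) with all arrays, and 12 higher (50.0%, background 55.8%) and 1 lower without Glt25d2 replicate 3. After quantile normalization it had 2 higher and 2 lower, and after centring 2 higher and 11 lower (45.8%, background 31.8%). Whether the classes differ between the lines was not tested.

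Probe sets of 1 gene did not always give the same result. Of 99 tested probe sets of these genes, 27 were higher (background 44.2% of 21291 probe sets) and 2 lower (4.39%). Of 31 genes with over 1 tested probe set, 6 had every probe set called higher, 10 had some called and some not, 15 had none called, and none had calls in both directions. Signs differed between the probe sets of 8 of these 31 genes. The 3 tested probe sets of Vamp3 differed by 0.75 to 1.58, and both of Stx1a were called, at 0.84 and 2.05. Of those of Vamp3, only the one at 1.58 was still called higher after centring, at 0.81. After quantile normalization it was called at 0.97. The dimmer probe set of Stx1a had 2367, 2279 and 2617 in Glt25d2 and 10644, 9031 and 10513 in S100a10 arrays. It was called higher also after centring, at 1.29, and after quantile normalization, at 1.78. For Napb, 1 of 5 probe sets was called higher, at 0.87 (SE 0.21), while the others lay between -0.22 and 0.03. For Cplx2 a probe set with 658, 509 and 2060 in Glt25d2 and 2279, 2358 and 2443 in S100a10 arrays differed by 1.42 (SE 0.52) and did not pass, beside 0.09 for the brightest. Without Glt25d2 replicate 3 that dimmer probe set was called higher, at 2.03 (limma adjusted p = 6.97e-05). With quantile normalization as well it was called at 1.54 (limma adjusted p = 3.65e-04).

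**Figure D4:**
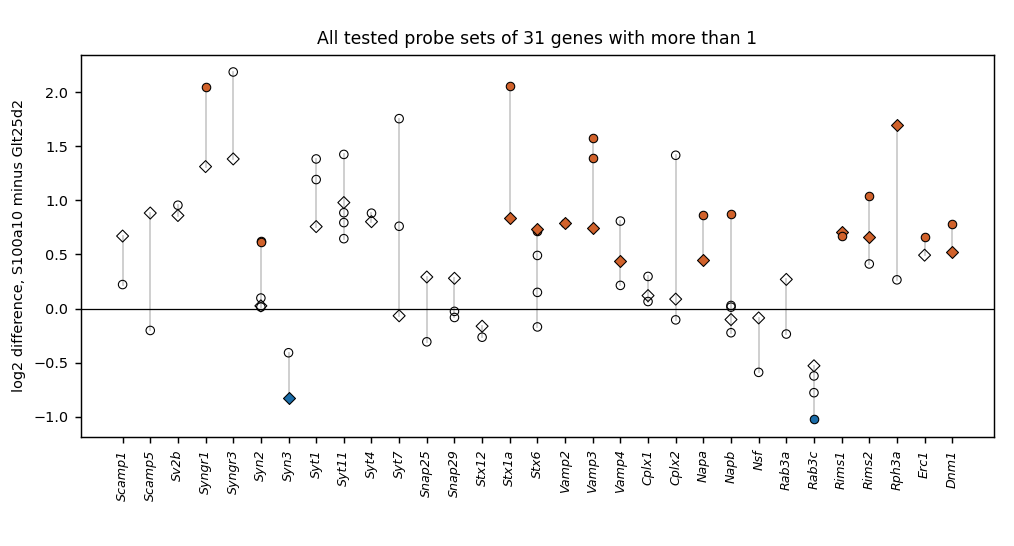
log2 difference of S100a10 minus Glt25d2 for every tested probe set of the 31 genes with over 1, joined by a grey line per gene, with diamonds for the probe set used for the gene and fill for calls (orange higher, blue lower, open not called). Stx1a, Vamp3, Vamp2, Napa, Rims1 and Dnm1 are filled throughout, and Syt7, Cplx2 and Napb spread widely.

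Of 99 other genes of vesicle release and membrane fusion, 88 were tested, and 35 were higher in S100a10 arrays (39.8%, against 44.7% of all genes) and 7 lower (7.95%, against 4.59%). Their median difference was 0.43, beside 0.56 for all genes. The 4 largest rises among them were in Vamp5, Vamp8, Rims3 and Snap23. Vamp5, a SNARE relative known from muscle, had 99.9, 99.9 and 87.7 in Glt25d2 and 2949, 2258 and 1926 in S100a10 arrays, so it was 4.61 higher on the log2 scale (SE 0.18, limma adjusted p = 2.22e-05). Vamp8 (endobrevin), the SNARE of endosomes and secretory cells, rose by 3.96 (SE 0.16), from 110, 110 and 91.1 to 1732, 1807 and 1317. Snap23, the widely expressed relative of Snap25, rose by 2.22 (SE 0.22), from an identical 61.2 in all Glt25d2 arrays to 397, 233 and 252. Rims3, which encodes a short Rim protein of neurons, rose by 2.94 (SE 0.25), from 195, 224 and 312 to 2128, 1389 and 2086. All 4 passed in all 17 alternative fits. Fibroblast and mural markers, whose sums are given above, were higher in the same arrays, and their part in these rises was not tested.

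The 4 largest falls among these other genes were Stxbp6, Ppfia2, Syt17 and Doc2a. Stxbp6 (amisyn), which binds SNAREs and hinders their assembly, had 6211, 5934 and 10170 in Glt25d2 and 2742, 2201 and 2623 in S100a10 arrays. The groups were widely apart, at -1.52 on the log2 scale (SE 0.24, limma adjusted p = 0.00347). Stxbp6 passed in all 17 alternative fits. Ppfia2 (liprin alpha 2), an active zone scaffold, differed by -1.01 (SE 0.25, limma adjusted p = 0.0207). Its call was lost when any S100a10 array was left out. Syt17, a synaptotagmin relative without a membrane span, had 3499, 3005 and 3702 against 1552, 1946 and 2051, and was at -0.88 on the log2 scale (SE 0.15, limma adjusted p = 0.00491). Syt17 passed in all 17 alternative fits. Doc2a, a soluble calcium sensor of slow release, differed by -0.68 (SE 0.18, limma adjusted p = 0.0232). It lost its call without Glt25d2 replicate 1 or 2 or S100a10 replicate 1 or 3.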

How the data were processed

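The deposited table holds the authors' intensities, linear and made with GCRMA per the submitters' processing notes. No GCRMA version was found in those notes. RNA was amplified before labelling, per the labels' protocols. Averaging of replicates is mentioned in the series text, yet the table has 6 separate columns, which were used. Sorted log2 values differed by 0.0174 to 0.0811 on average within a group and by 0.447 to 0.508 between groups, so a difference may include an offset of scale.

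The table lists 45101 probe sets, and its 64 controls were set aside. Probe sets naming 1 gene (34945) were used, 932 named several and 9160 none in the table used here. Genes with a mean of at least 50 in either group were kept, each by its probe set with the highest mean log2. The contrast of the 6 arrays was estimated on log2 values of the authors' intensities by limma 3.58.1 (R 4.3.3), with no block and a threshold of 0.05, after the fit was tested on simulated data. The replicates are called biological in the sample titles, without saying which animals they came from. The p-values rest on the spread between these samples, and 3 arrays a group limit the precision. Pairs of Glt25d2 arrays had 19.5% to 35.1% identical values, against 0.226% to 0.449% for pairs of S100a10 arrays. Identical values lower the Glt25d2 spread that enters the p-values, and their cause was not tested. The 47 genes, the lists, the membrane classes and the alternatives were chosen with earlier results of these data known. The genes named are all 47 and the 4 largest called differences in each direction among the other release genes. Symbols were checked through Entrez identifiers against RefSeq GRCm38.p6, and 0 changed. Figures used matplotlib 3.10.9.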

Additional observations from a re-analysis of the deposited data

How the results depend on the processing

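There were 17 alternatives for each gene: quantile normalization, centring, a replicate block, a trended prior, no filter, a filter on both group means, a floor of 50, a pseudocount of 16, the probe sets of a gene averaged or its lowest one taken, each array left out, and quantile normalization without Glt25d2 replicate 3. The number of the 46 genes higher in S100a10 arrays, 13, was 5 after quantile normalization, 2 after centring and 8 with quantile normalization without Glt25d2 replicate 3, and 9 to 23 with an array left out (35.9% to 55.8% of all genes). The number lower, 1, was 2, 13 and 3 in those fits, 2 with probe sets averaged, and 0 to 2 with an array left out. For the other release genes the number higher, 35, became 12, 9 and 18 in the rescaled fits and 23 to 44 with an array left out. The number lower, 7, became 16, 36 and 16, and 3 to 7. Of all genes 18.7%, 16.6% and 24.1% were higher and 19.0%, 31.8% and 23.7% lower in the rescaled fits. Of the 99 tested probe sets of the 47 genes, 27 were higher and 2 lower with the deposited values. These counts became 12 and 14 after quantile normalization, against 16.8% and 19.4% of all 21291 probe sets. After centring the counts were 5 and 31, against 15.8% and 30.3%. Without Glt25d2 replicate 3 they were 45 and 4, beside 11720 and 1276 of all 21291 probe sets. With quantile normalization as well they were 18 and 24, against 22.4% and 24.0%. Centring turned the called differences of Vamp1 (-0.15), Vamp3 (-0.022), Vamp4 (-0.32), Stx6 (-0.033), Stx16 (-0.31), Napa (-0.32), Rims1 (-0.056), Rims2 (-0.10) and Dnm1 (-0.24), and called Syn2 (-0.74), Snap25 (-0.48), Cplx1 (-0.65), Cplx2 (-0.68) and Rab3a (-0.50) lower. By construction it lowers every difference by 0.77, which puts the median gene at -0.21. Sv2b was called at -0.55 with quantile normalization without Glt25d2 replicate 3, and Stx6 was -0.17 at its lowest probe set. The cause of the other changes was not tested. The median of the inserted class in Glt25d2 replicate 3, -2.54, was -2.47 after quantile normalization and -2.48 after centring. With the replicate number as a block 9 of the 46 genes were higher (35.7% of all genes), 1 was lower (2.77%) and 26 and 3 of the other release genes were. Deviations of same-numbered arrays correlated at -0.49, 0.27 and -0.26, and not every array correlated best with its own number, so the numbers are not used as pairs.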

Other observations

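The division seen in Glt25d2 replicate 3 was looked at in other release genes, sorted into classes after the values of the 46 genes were known. Of 13 tested genes whose proteins are inserted during translation, 9 were under 50% of the arithmetic mean of replicates 1 and 2. The median was 40.2%. Of all tested genes, 14.5% were more than 2-fold lower there against the mean log2 of those replicates, a slightly stricter measure. Among the 9, Syt3 lay closest to the limit, at 49.95%. The lowest were Slc32a1, the vesicular GABA transporter, at 8.76%, Syt12 at 9.8%, Atp6v0a1, a membrane subunit of the vesicle proton pump, at 13.2%, and Syt2, the calcium sensor of fast inhibitory synapses, at 16.2%. The vesicular glutamate transporters Slc17a6 and Slc17a7 were at 19.3% and 33.9%. Syngr2, which had an identical intensity of 44.5 in every Glt25d2 array, showed no reduction, and Syt9 was at 89.4%. Of 12 other tail-anchored SNAREs 0 were under 50%. They ranged from 68.7% for Stx2 to 165% for Stx3, with a median of 103%.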
